A study of Homo sapiens and Mus musculus with 29 samples.

Results

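Epithelial cells carry keratin filaments that are anchored at desmosomes, and a squamous epithelium adds a cornified envelope to them. The genes described here are 37 members of these structures, chosen by symbol: 6 keratins of simple epithelia (KRT7, KRT8, KRT18, KRT19, KRT20 and KRT23), 11 keratins of stratified or squamous epithelia (KRT4, KRT5, KRT6A, KRT6B, KRT6C, KRT10, KRT13, KRT14, KRT15, KRT16 and KRT17), 3 other keratins (KRT80, KRT81 and KRT86), 9 desmosome genes, 7 genes of the cornified envelope and its cross-bridges, and TP63. All 37 were found in the human table, which holds 58719 genes, and 31 of them reached a mean of 0.3 RPKM (reads scaled to transcript length and to the depth of the library) over the 21 human samples, as did 19900 of all genes. KRT5, KRT6C, DSC3, SPRR2A, IVL and TP63 stayed under it. KRT4, with a mean of 0.306 RPKM, lay just inside this limit, and KRT5 (0.163 RPKM) and TP63 (0.162 RPKM) were the nearest below it.

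Type I and type II keratins pair to form filaments. KRT8 with KRT18 or KRT19 is the usual pair of the gland and duct cells of the pancreas, whereas KRT5 with KRT14 marks the basal layer of squamous epithelia and KRT6 with KRT16 appears in injured or fast-growing ones. Desmosomal cadherins (desmogleins and desmocollins) join neighboring cells and are tied to the filaments by plakoglobin, plakophilins and desmoplakin. Small proline-rich proteins and involucrin are cross-linked into the cornified envelope, and p63, the product of TP63, is the transcription factor of squamous lineages. In pancreatic ductal adenocarcinoma, squamous genes are used to tell a basal-like subtype from the classical one.

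The human samples were tumors of HPAF-II, a pancreatic adenocarcinoma cell line, grown in the pancreas of immunodeficient NSG mice, and metastases from the same experiment. The groups were 3 control tumors (CRISPR Cas-9 with an empty vector), 4 tumors and 2 metastases labeled HNF4G knockout with the empty vector (HNF4G-KO, a pool of 3 clones), 3 tumors of Cas-9 control cells with lentiviral FOXA1 (FOXA1-OE), and 5 tumors and 4 metastases of HNF4G knockout cells with FOXA1 (HNF4G-KO + FOXA1-OE). Tumors 2 and 3 of HNF4G-KO + FOXA1-OE shared a mouse, as did metastases 1 and 2, and each such pair was averaged on the log2 scale. The mouse samples were cell lines of KPC mice, a genetic model of pancreatic cancer, with 4 libraries from the primary tumor and 4 from a liver metastasis. Depth, from the steps between RPKM values, was 33.1 to 69.6 M reads in human and 30.1 to 44.4 M reads in mouse libraries.

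HNF4G mRNA went against the knockout label, at 5.72 to 8.42 RPKM in the 4 HNF4G-KO tumors and 2.48 to 3.47 in the 3 control tumors, which bears on the transcript level alone. FOXA1 mRNA was 0.519 to 0.932 RPKM in control tumors and 4.65 to 23.1 in the 5 HNF4G-KO + FOXA1-OE tumors. It was 6.32 and 8.18 in FOXA1-OE tumors 1 and 2, but 0.763 in tumor 3. In the HNF4G-KO + FOXA1-OE metastases it was 0.535, 17.9, 1.30 and 1.55. FOXA1-OE tumor 3 and HNF4G-KO + FOXA1-OE tumor 5 stood apart over all genes (median correlation with the other tumors 0.891 and 0.909, against 0.934 to 0.965 for each other tumor), so counts are also given without these 2 libraries, an alternative chosen after the data were seen. The 5 epithelial markers (EPCAM, CDH1, MUC1, CEACAM5 and TFF1) were at 1 RPKM or more on average in every group. They summed to 814 to 934 RPKM in control tumors and 1699 to 2153 in HNF4G-KO tumors. In these groups in turn, CEACAM5 (47.0 to 199 and 639 to 773 RPKM) and TFF1 (51.2 to 88.9 and 336 to 663) differed most. CDH1 was 47.2 to 79.1 and 89.5 to 106 RPKM. EPCAM (452 to 504 and 397 to 549) and MUC1 (101 to 162 and 86.2 to 165) overlapped. The 10 host stroma markers summed to 102 to 229 RPKM in control tumors, 64.5 to 89.7 in HNF4G-KO tumors, 65.3 to 185 in FOXA1-OE tumors and 67.2 to 139 in HNF4G-KO + FOXA1-OE tumors. The 8 host pancreas markers summed to 3.60, 4.78 and 404 RPKM in control tumors, highest in tumor 2 (CPA1 210 RPKM), and to 0.110 to 8.89 in HNF4G-KO tumors. All these are values of human genes, and how far mouse reads were counted on them, or on the members, was not tested.

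HPAF-II tumors and metastases expressed the keratins of simple epithelia at levels far above those of squamous keratins. The 6 simple keratins made up 97.1% to 98.4% of the summed keratin RPKM in each of the 21 samples, and the 11 squamous keratins 0.804% to 1.68%. KRT19, the keratin used most as a ductal marker, had the highest mean (1295 RPKM), ahead of KRT8 (922), KRT18 (738), KRT20 (506) and KRT7 (489). KRT23 (34.9 RPKM) lay below KRT80 (42.3 RPKM), a keratin of differentiating epithelia.

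**Figure D1:**
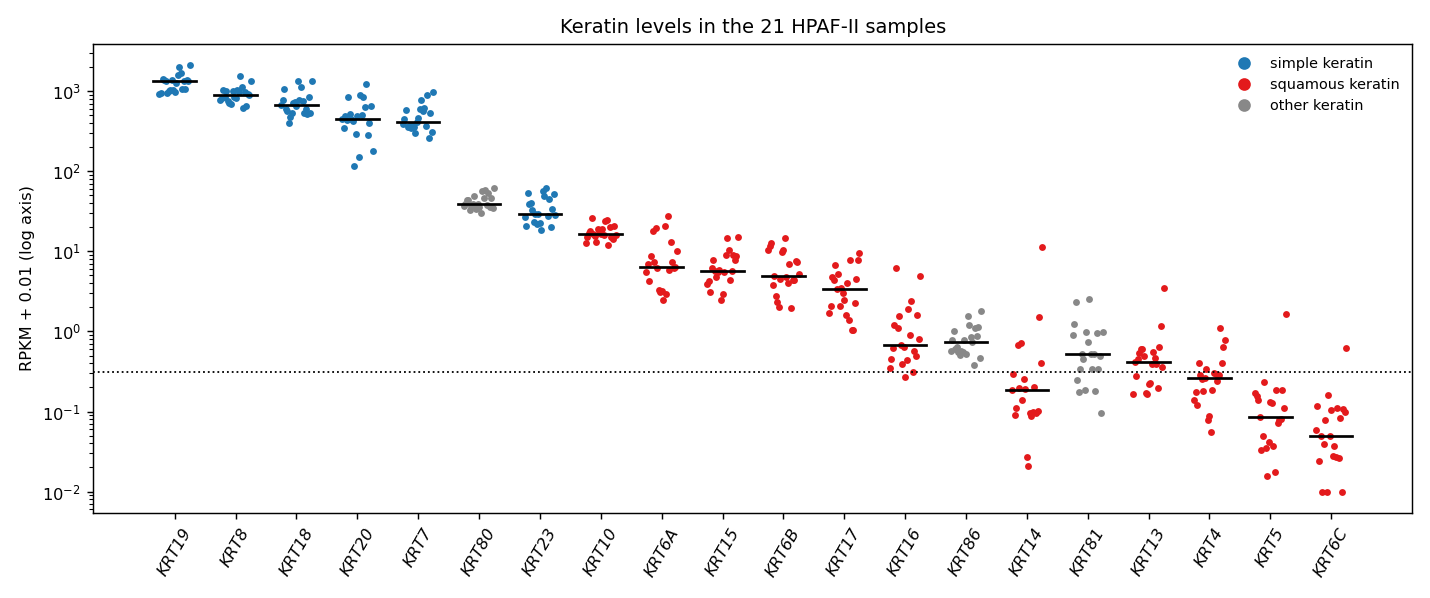
Level of each of the 20 keratins in the 21 HPAF-II samples, in RPKM with 0.01 added, on a log axis. Each point is a sample, black bars are medians, and the dotted line is 0.3 RPKM. KRT19, KRT8, KRT18, KRT20 and KRT7 lie above all other keratins in every sample, and KRT14, KRT13 and KRT5 are highest in the same sample.

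KRT19 was 926, 939.7 and 1436 RPKM in control tumors, 1369, 958, 1015 and 1037 in HNF4G-KO tumors, 1039.7, 973 and 1260.4 in FOXA1-OE tumors, and 1585, 1052, 1319, 1386 and 2101 in HNF4G-KO + FOXA1-OE tumors. Its levels overlapped between all these groups. In metastases it was 1356 and 1358 RPKM with HNF4G-KO and 1982, 1683, 1061 and 1353 with HNF4G-KO + FOXA1-OE.

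Among squamous keratins, KRT10, the suprabasal keratin of the epidermis, had the highest mean (17.5 RPKM). It was 12.7, 15.1 and 17.0 RPKM in control tumors, 17.7, 16.5, 15.5 and 13.1 in HNF4G-KO tumors, 16.9, 16.6 and 18.8 in FOXA1-OE tumors, and 15.8, 12.1, 20.1, 14.2 and 16.1 in HNF4G-KO + FOXA1-OE tumors. In metastases it was 26.3 and 18.9, and 24.1, 24.8, 15.2 and 20.9 RPKM in the same order of groups. KRT6A (mean 9.02 RPKM), KRT15 (6.81), KRT6B (6.49), KRT17 (3.81) and KRT16 (1.32) followed, and KRT4, KRT5, KRT6C, KRT13 and KRT14 were under 1 RPKM on average.

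TP63 was low everywhere, at 0.170, 0.0955 and 0.0598 RPKM in control tumors, 0.223, 0.256, 0.407 and 0.159 in HNF4G-KO tumors, 0.199, 0.246 and 0.102 in FOXA1-OE tumors, and 0.0781, 0.0464, 0.0470, 0.129 and 0.0492 in HNF4G-KO + FOXA1-OE tumors. In metastases it was 0.351 and 0.325 with HNF4G-KO, and 0.0440, 0.148, 0.146 and 0.117 with HNF4G-KO + FOXA1-OE. It did not pass the limit for testing.

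The members that were never called are given by their range over the 21 samples. KRT8, the type II partner of KRT18, ran from 609 to 1537 RPKM and KRT23 from 18.6 to 61.7. KRT17, a keratin of hair follicles and injured skin, ran from 1.03 to 9.38 RPKM, KRT16 from 0.261 to 6.24, KRT4 from 0.0458 to 1.10 and KRT86 from 0.375 to 1.79. Of the desmosome genes, DSP ran from 15.6 to 55.2 RPKM, PKP3 from 32.6 to 87.7, PKP2 from 4.77 to 16.6 and DSC3 from 0 to 0.285. The lowest PKP2 was in HNF4G-KO + FOXA1-OE tumor 5, followed by FOXA1-OE tumor 3 (5.28 RPKM). PPL ran from 12.3 to 29.7 RPKM and EVPL from 15.02 to 45.3.

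HNF4G-KO + FOXA1-OE tumor 5 held the highest level of several squamous keratins. KRT14, the basal partner of KRT5, was 11.5 RPKM there and at most 1.51 in each of the other 20 samples. KRT5 was 1.62 RPKM in tumor 5 and at most 0.224 elsewhere, and KRT13, a keratin of the esophagus and oral mucosa, was 3.51 and at most 1.16. TP63 was 0.0492 RPKM in that tumor, among the lowest levels measured.

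In HNF4G-KO against control tumors, 3 desmosomal cadherins, the plakophilin PKP1 and 2 small proline-rich genes rose, and the keratins KRT6B and KRT81 fell. Of 30 members tested, 8 passed an adjusted p of 0.05, 6 higher and 2 lower, where 9.24% of the 20002 genes tested did (4.87% higher and 4.37% lower). The median log2 difference was 0.18 for the members and -0.01 for all genes. None of the 6 simple keratins passed, with 1 of 6 at an unadjusted p under 0.05 in the same limma test, as were 27.3% of all genes. The groups did not overlap for 15 members, 11 higher and 4 lower, against 41% of all genes (21.7% higher and 19.3% lower). In tumors made of human and host cells, fewer cells of a type and less RNA per cell cannot be told apart. The knockout cells were a pool of 3 clones. The p-values of comparisons with them measure the spread between mice, and effects of knockout and of clone cannot be told apart. The call count was 2 without control tumor 2 (1.55% of all genes called) or control tumor 3 (3.03%). It was 3 without any 1 of the 4 HNF4G-KO tumors (3.3% to 5.45%) and 6 without control tumor 1 (5.83%).

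**Figure D2:**
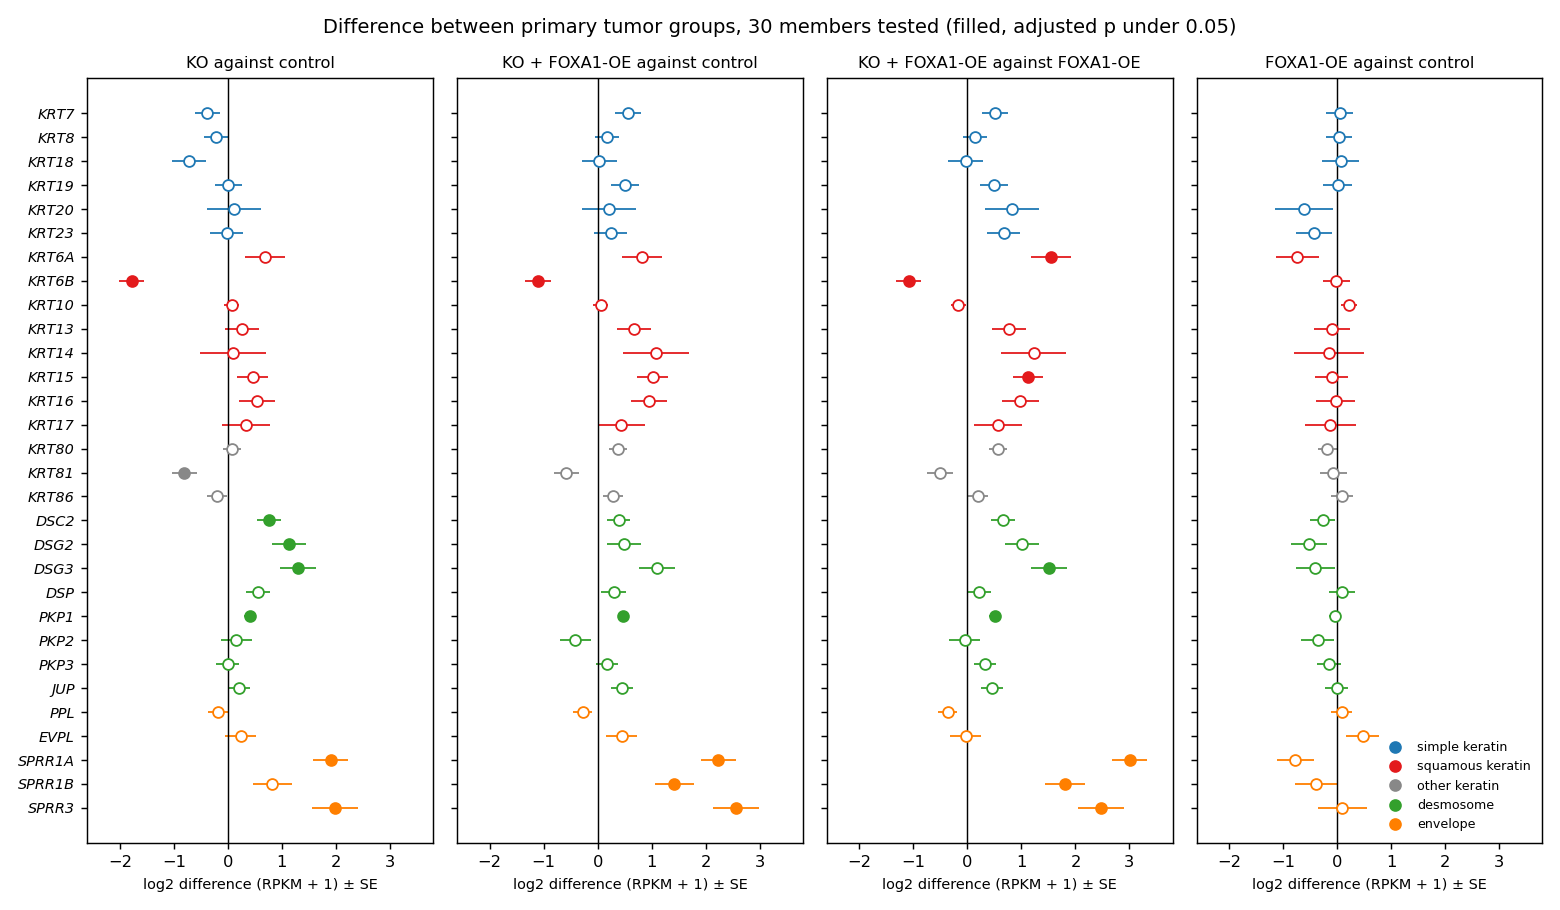
Log2 difference of RPKM + 1 with its standard error for the 30 members tested, in 4 comparisons of primary tumors from a single limma fit, colored by role and filled where the adjusted p was under 0.05. SPRR1A and SPRR3 lie furthest to the right in the first 3 panels, KRT6B lies left of 0 in each of them, and no member is filled for FOXA1-OE against control.

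SPRR1A and SPRR3 encode small proline-rich proteins of the cornified envelope. SPRR1A was 4.75, 5.06 and 6.68 RPKM in control tumors, 24.5, 23.2, 28.4 and 17.4 in HNF4G-KO tumors, 3.12, 3.40 and 1.97 in FOXA1-OE tumors, and 57.5, 33.9, 28.5, 15.6 and 26.2 in HNF4G-KO + FOXA1-OE tumors. All 9 tumors of knockout cells lay above all 6 tumors of Cas-9 control cells. The mean was 23.4 ± 4.57 RPKM in HNF4G-KO tumors (SD, n = 4 mice) and 5.50 ± 1.04 in control tumors (SD, n = 3 mice), a log2 difference of 1.90 ± 0.33 (SE, limma adjusted p = 0.00537).

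SPRR3 was 6.09, 7.07 and 6.80 RPKM in control tumors, 32.7, 32.0, 40.6 and 17.1 in HNF4G-KO tumors, 4.44, 5.15 and 15.3 in FOXA1-OE tumors, and 59.1, 45.1, 11.4, 37.2 and 74.9 in HNF4G-KO + FOXA1-OE tumors. The HNF4G-KO and control tumors did not overlap, while FOXA1-OE tumor 3 lay above HNF4G-KO + FOXA1-OE tumor 3. The log2 difference of HNF4G-KO from control tumors was 1.98 ± 0.43 (SE, limma adjusted p = 0.0158).

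SPRR1B was 8.08, 11.5 and 14.03 RPKM in control tumors, 26.5, 17.8, 22.8 and 15.3 in HNF4G-KO tumors, 7.57, 4.76 and 14.5 in FOXA1-OE tumors, and 55.0, 23.8, 16.8, 23.4 and 35.03 in HNF4G-KO + FOXA1-OE tumors. Its log2 difference of 0.82 ± 0.36 (SE) between HNF4G-KO and control tumors had a limma adjusted p of 0.164, and the groups did not overlap. PPL and EVPL, the periplakin and envoplakin that link filaments to the envelope, had log2 differences of -0.18 and 0.24 and did not pass the test. SPRR2A and IVL, which encode a further proline-rich protein and involucrin, were at most 0.162 and 0.169 RPKM in any sample.

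**Figure D3:**
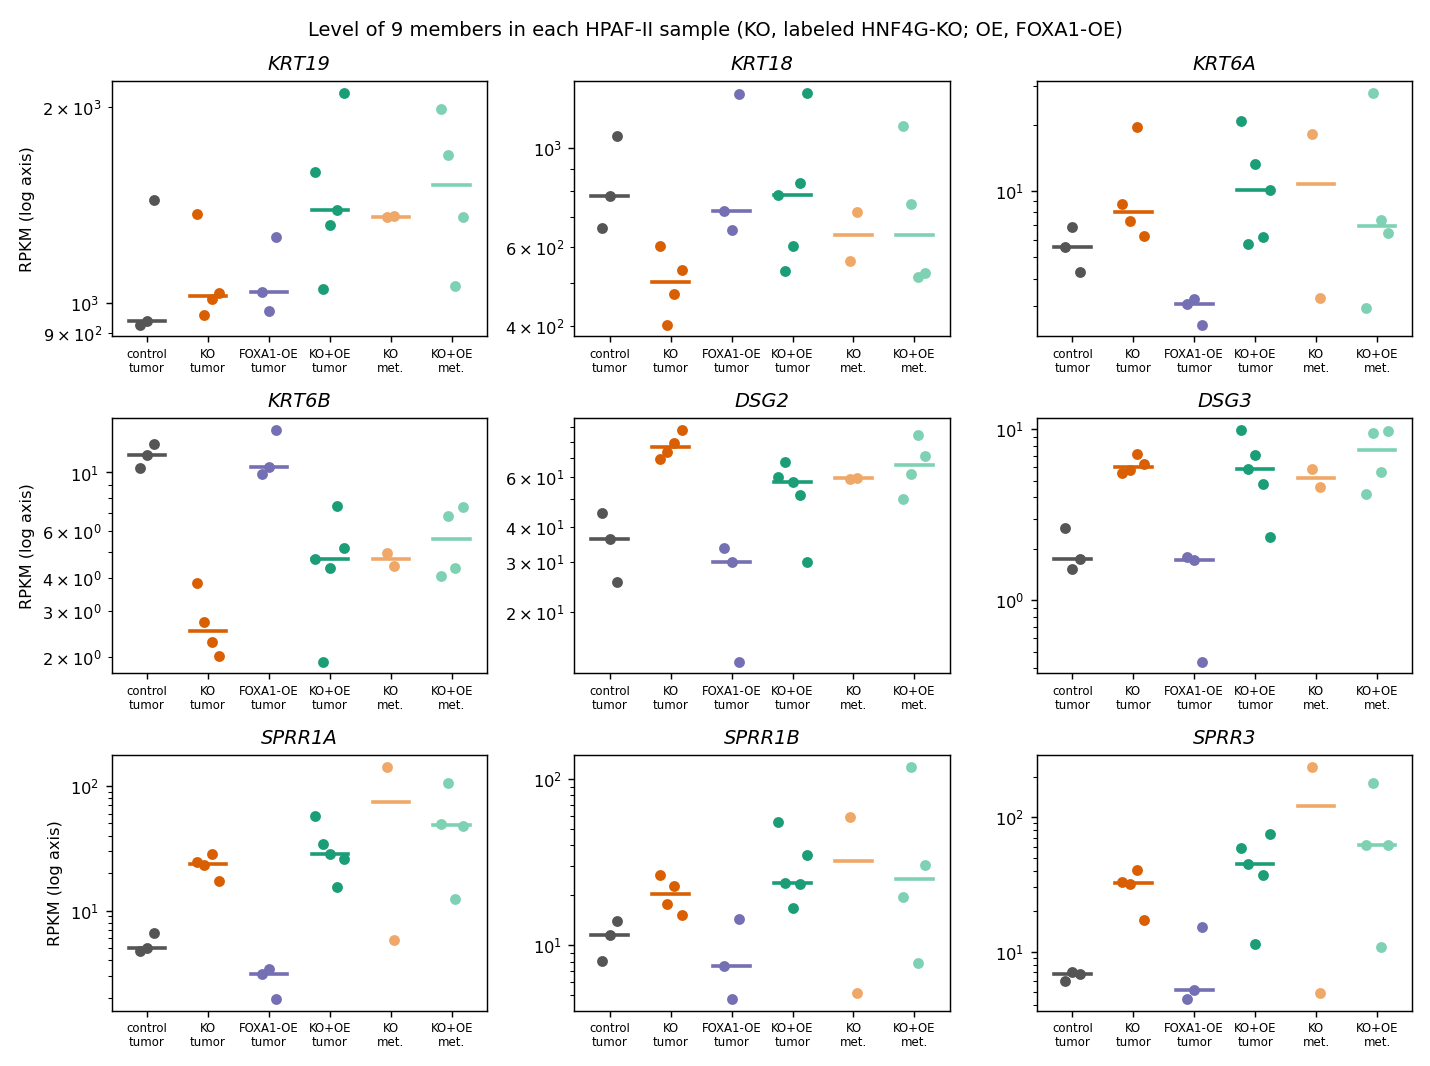
RPKM of 9 members in each HPAF-II sample, on log axes, by group (KO, labeled HNF4G-KO; OE, FOXA1-OE; met., metastasis). Points are samples and bars are medians. SPRR1A, SPRR3, DSG2 and DSG3 are higher and KRT6B is lower in all 4 KO tumors than in all 3 control tumors, and the SPRR genes spread widely in metastases.

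The SPRR genes lie side by side in the epidermal differentiation complex of chromosome 1. The 250 bases before their transcription starts are shown because all 3 genes were called in HNF4G-KO + FOXA1-OE against control tumors. The sequences are from RefSeq (GRCh38.p14, plus strand), at chr1:152983831-152984080 for SPRR1A, chr1:153030953-153031202 for SPRR1B and chr1:153001499-153001748 for SPRR3. Capitals mark every match, on either strand, to the AP-1 motif TGANTCA, the TATA motif TATAAA, the FOXA motif TGTTTAC or the HNF4 motif CAAAGTCCA.
SPRR1A: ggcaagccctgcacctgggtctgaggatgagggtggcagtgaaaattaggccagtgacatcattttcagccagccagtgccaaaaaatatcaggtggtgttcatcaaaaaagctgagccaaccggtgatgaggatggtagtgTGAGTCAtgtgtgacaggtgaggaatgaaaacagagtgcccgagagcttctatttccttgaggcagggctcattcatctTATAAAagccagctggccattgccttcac
SPRR1B: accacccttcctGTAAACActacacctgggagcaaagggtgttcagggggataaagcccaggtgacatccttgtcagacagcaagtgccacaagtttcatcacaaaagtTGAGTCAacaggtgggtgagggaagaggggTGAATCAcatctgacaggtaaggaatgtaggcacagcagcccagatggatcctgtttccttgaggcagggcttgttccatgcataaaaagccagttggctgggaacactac
SPRR3: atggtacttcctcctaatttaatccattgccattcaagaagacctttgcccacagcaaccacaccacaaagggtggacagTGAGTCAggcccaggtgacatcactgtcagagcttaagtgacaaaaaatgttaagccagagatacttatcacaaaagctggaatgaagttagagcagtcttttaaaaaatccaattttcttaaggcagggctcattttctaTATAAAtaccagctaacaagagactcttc

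Of the 37 members, 18 had a RefSeq promoter entry. TGANTCA stood in 5 of these 18 windows, those of SPRR1A, SPRR1B, SPRR2A, SPRR3 and IVL, and in 6.60% of 27305 promoter windows of the same length. Counted from the transcription start, it began at -108 in SPRR1A, at -170 in SPRR3, and at -141 and -111 in SPRR1B. TATAAA was found in 5 of the 18 (KRT10, SPRR1A, SPRR2A, SPRR3 and IVL) and in 11.1% of all windows. TGTTTAC was found in 1 (SPRR1B, at -238, on the minus strand) and in 2.98% of all windows. CAAAGTCCA was found in none of the 18 and in 0.293% of all windows. No matches of different motifs overlapped in the 3 sequences printed.

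The 3 desmosomal cadherins tested, DSG2, DSG3 and DSC2, rose in HNF4G-KO tumors. DSG2 and DSG3 each passed under 9 of 16 alternative settings and DSC2 under 8, and the fourth cadherin, DSC3, was too low to be tested. DSG2, the desmoglein of simple epithelia, was 44.8, 36.3 and 25.6 RPKM in control tumors, 69.6, 73.5, 79.4 and 88.2 in HNF4G-KO tumors, 33.7, 29.95 and 13.3 in FOXA1-OE tumors, and 59.9, 67.7, 57.7, 51.9 and 30.1 in HNF4G-KO + FOXA1-OE tumors. The HNF4G-KO tumors lay above all 3 control tumors, with means of 77.7 ± 8.08 (SD, n = 4 mice) and 35.6 ± 9.61 RPKM (SD, n = 3 mice). The log2 difference was 1.14 ± 0.31 (SE, limma adjusted p = 0.0398).

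DSG3, the desmoglein of basal squamous cells, was 2.65, 1.52 and 1.75 RPKM in control tumors, 5.55, 5.75, 7.17 and 6.31 in HNF4G-KO tumors, 1.80, 1.72 and 0.435 in FOXA1-OE tumors, and 9.95, 5.84, 7.06, 4.76 and 2.34 in HNF4G-KO + FOXA1-OE tumors. HNF4G-KO + FOXA1-OE tumor 5 was the only tumor of knockout cells within the range of the controls. The log2 difference of HNF4G-KO from control was 1.29 ± 0.33 (SE, limma adjusted p = 0.0309).

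DSC2, the widely expressed desmocollin, was 9.68, 8.30 and 7.49 RPKM in control tumors, 13.7, 15.2, 15.4 and 15.9 in HNF4G-KO tumors, 7.10, 8.74 and 5.13 in FOXA1-OE tumors, and 13.8, 15.8, 12.9955, 11.7 and 7.22 in HNF4G-KO + FOXA1-OE tumors. Without tumor 5, every tumor of knockout cells was above every other tumor. The log2 difference of HNF4G-KO from control was 0.76 ± 0.21 (SE, limma adjusted p = 0.0420).

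PKP1, the plakophilin of suprabasal squamous cells, was 0.198, 0.202 and 0.118 RPKM in control tumors, 0.670, 0.534, 0.504 and 0.497 in HNF4G-KO tumors, 0.169, 0.151 and 0.114 in FOXA1-OE tumors, and 0.581, 0.334, 0.646, 0.588 and 0.883 in HNF4G-KO + FOXA1-OE tumors. These levels are low, but none of the 9 tumors of knockout cells overlapped with the 6 others. The log2 difference of HNF4G-KO from control was 0.40 ± 0.10 (SE, limma adjusted p = 0.0297) on the scale of RPKM + 1, which understates the change of a gene at this level.

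The abundant plaque proteins did not pass the test. JUP, plakoglobin, had the highest mean of the desmosome genes and was 116, 130.2 and 104 RPKM in control tumors, 137, 112, 139 and 155 in HNF4G-KO tumors, 137, 120.1 and 94.9 in FOXA1-OE tumors, and 187, 144, 148, 124 and 191 in HNF4G-KO + FOXA1-OE tumors. Its groups overlapped. DSP, desmoplakin, was 22.7 ± 4.70 RPKM in control tumors (SD, n = 3 mice) and 33.7 ± 3.81 in HNF4G-KO tumors (SD, n = 4 mice), without overlap, with a log2 difference of 0.56 ± 0.23 (SE, limma adjusted p = 0.130). PKP2 and PKP3 had log2 differences of 0.16 and -0.01.

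DSC2, DSG3 and DSG2 are neighbors on chromosome 18. Within 1000000 bases of the cadherin cluster (chr18:29989365-32549008 in GRCh38, GENCODE release 44), 12 other genes were tested, and their median log2 difference was 0.20. RNF125 (0.63, limma adjusted p = 0.0393) and GAREM1 (0.85, limma adjusted p = 0.00569) were called higher and none lower. Over all 160 protein-coding genes of chromosome 18 tested, the median log2 difference was 0.33 and 30 were called higher (18.8%) and 0 lower, where the median over all 12579 coding genes tested was 0.06 and 6.37% were called higher. Chromosomes 13 (median 0.33, 15.6% called higher) and 10 (0.31 and 16.3%) had similar shifts, so the shift was not particular to chromosome 18. The part of this wider pattern in the cadherin result was not tested. Around the SPRR and IVL genes, the 36 other genes tested had a median of -0.29, 2 were called and 0 were called higher.

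**Figure D4:**
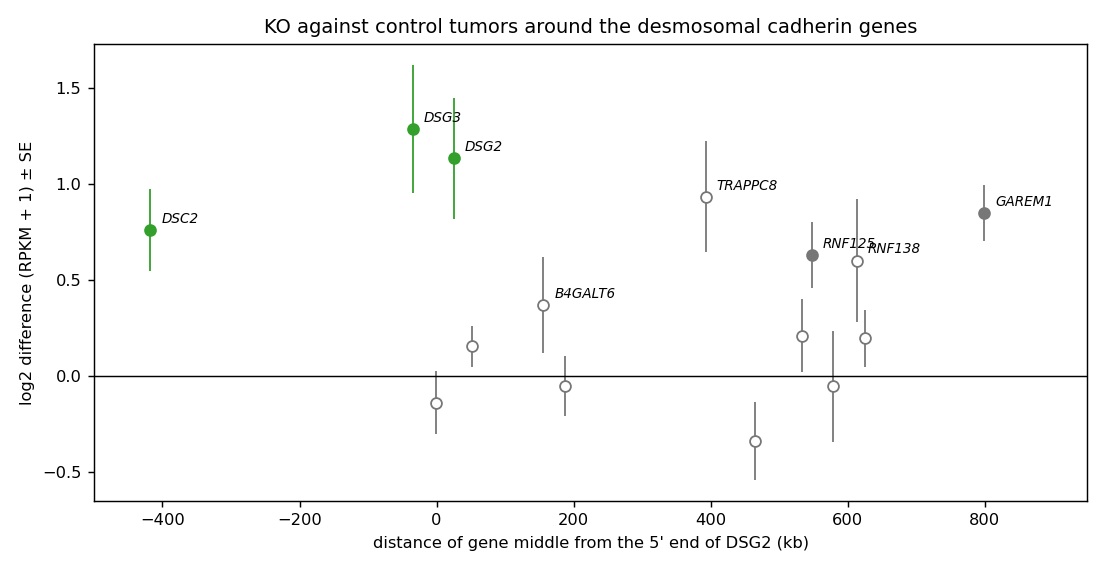
Log2 difference of RPKM + 1 between HNF4G-KO and control tumors, with its standard error, for the 15 genes tested around the desmosomal cadherins, by distance of the middle of each gene from the 5' end of DSG2 in kb. Green points are DSC2, DSG3 and DSG2, gray points other genes, filled points those with an adjusted p under 0.05, and names are given for coding genes. RNF125 and GAREM1 are the filled gray points.

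KRT6B fell, and its close copy KRT6A did not pass the test, though the difference between the copies was not itself tested. KRT6B was 10.4, 11.6 and 12.8 RPKM in control tumors, 3.81, 2.73, 2.30 and 2.03 in HNF4G-KO tumors, 9.90, 10.4 and 14.5 in FOXA1-OE tumors, and 4.71, 1.92, 4.34, 7.47 and 5.17 in HNF4G-KO + FOXA1-OE tumors. All 9 tumors of knockout cells lay below the 6 others. The mean was 2.72 ± 0.786 RPKM in HNF4G-KO tumors (SD, n = 4 mice) and 11.6 ± 1.19 in control tumors (SD, n = 3 mice), a log2 difference of -1.78 ± 0.24 (SE, limma adjusted p = 0.00118).

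KRT6A was 5.57, 6.88 and 4.29 RPKM in control tumors, 8.69, 7.30, 19.6 and 6.26 in HNF4G-KO tumors, 3.07, 3.22 and 2.47 in FOXA1-OE tumors, and 20.7, 5.77, 13.2, 6.16 and 10.1 in HNF4G-KO + FOXA1-OE tumors. HNF4G-KO and control tumors overlapped (log2 difference 0.69 ± 0.37 SE, limma adjusted p = 0.245). Within a sample, KRT6B was 1.69 to 5.87 times KRT6A in the 6 tumors of Cas-9 control cells, and 0.117 to 0.439 times KRT6A in the 4 HNF4G-KO tumors. In the 5 HNF4G-KO + FOXA1-OE tumors the ratio was 0.228 to 1.21.

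The 2 genes differ at 42 of 1692 coding bases, as read from GENCODE release 44 transcripts. The 100 coding bases from position 646 to 745, counted from the start codon, hold the most differences and are shown because they are where a read can tell the copies apart. They lie in exon 2 of 9 on the minus strand of chromosome 12 (GRCh38), at chr12:52491532-52491631 in KRT6A, chr12:52450416-52450515 in KRT6B and chr12:52472076-52472175 in KRT6C. Capitals mark the 10 positions at which the 3 genes are not all alike.
KRT6A: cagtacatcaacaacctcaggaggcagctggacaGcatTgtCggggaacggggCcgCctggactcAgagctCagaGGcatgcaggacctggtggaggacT
KRT6B: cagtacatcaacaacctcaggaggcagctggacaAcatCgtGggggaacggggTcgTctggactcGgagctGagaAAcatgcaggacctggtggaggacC
KRT6C: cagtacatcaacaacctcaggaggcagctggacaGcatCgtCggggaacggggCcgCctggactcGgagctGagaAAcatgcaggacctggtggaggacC

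Of the 50-base stretches of the canonical KRT6A transcript, 39.2% occur in the transcript of another gene, and so do 46.6% of those of KRT6B and 53.1% of those of KRT6C. How reads with several matches were counted is not given in the sources used here, so the split between the copies is uncertain, and KRT6C (0.0782 RPKM on average) had the highest share. The share was 44.6% for KRT81 and 39.9% for KRT86, a pair of hair keratins whose genes also overlap, and 39.2% and 35.3% for KRT8 and KRT18, which have many processed copies. It was 0% for SPRR3, PKP1, DSP and JUP, 7.85% for SPRR1A, and 0.407%, 0.921% and 4.18% for DSC2, DSG2 and DSG3.

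KRT81 was 0.893, 1.21 and 2.31 RPKM in control tumors, 0.235, 0.326, 0.508 and 0.445 in HNF4G-KO tumors, 0.968, 0.729 and 2.53 in FOXA1-OE tumors, and 0.513, 0.171, 0.944, 0.484 and 0.970 in HNF4G-KO + FOXA1-OE tumors. The log2 difference of HNF4G-KO from control was -0.81 ± 0.24 (SE, limma adjusted p = 0.0487), without overlap. KRT80, the most abundant of the 3 other keratins, was 36.4, 39.1 and 43.8 RPKM in control tumors, 43.6, 36.6, 39.0 and 49.7 in HNF4G-KO tumors, 38.4, 35.8 and 30.5 in FOXA1-OE tumors, and 56.3, 37.6, 52.9, 46.0 and 61.8 in HNF4G-KO + FOXA1-OE tumors, and passed no test. KRT18 was 663, 779.7 and 1064 RPKM in control and 605, 403, 472 and 533 in HNF4G-KO tumors, which did not overlap, but its log2 difference of -0.72 ± 0.32 (SE) had a limma adjusted p of 0.164.

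The 8 calls of HNF4G-KO against control were at the exact permutation p of 0.0286 (two-sided), the smallest that 4 against 3 mice allow. That p needs groups without overlap, which held for 41% of all genes. The 8 were chosen from the same values, so it is no separate support. The summed RPKM of the host stroma markers was lower in all 4 HNF4G-KO tumors than in all 3 control tumors. Taken singly, VIM, ACTA2 and TAGLN were lower without overlap, and the other markers on the list overlapped. The part of the stroma level in these results was not tested apart from the group, since both move together. With that level as a covariate, 10 members (6 higher and 4 lower) and 19% of all genes were called. Without FOXA1-OE tumor 3 and HNF4G-KO + FOXA1-OE tumor 5, which belong to neither group compared, 10 of 29 members and 24.7% of all genes were called.

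Of 61 further symbols of squamous differentiation and cell junctions, 26 were tested and 5 called in HNF4G-KO against control, where 9.24% of all genes were called. KLF5, a transcription factor of proliferating epithelia, rose from 47.2 ± 4.97 RPKM (SD, n = 3 mice) to 115 ± 4.45 (SD, n = 4 mice; log2 difference 1.27, limma adjusted p = 0.00267). GRHL3 (1.17, adjusted p = 0.0325) and OVOL1 (1.18, adjusted p = 0.0387), regulators of epidermal differentiation, and ECM1 (1.20, adjusted p = 0.0400), a secreted matrix protein, also rose in log2 difference by limma. VIM, which is also on the host stroma list, fell by 1.36 on the log2 scale (limma adjusted p = 0.00284).

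No member was called for FOXA1 overexpression in control cells, a comparison of 3 against 3 mice. Of the 30 tested, 0 were called, as were 0% of the 20002 genes, and 1 was at an unadjusted p under 0.05 by limma, where 5.18% of genes were (SPRR1A, log2 difference -0.77 ± 0.35 SE, adjusted p = 0.839). SPRR1A was lower in all 3 FOXA1-OE tumors than in all 3 control tumors, and so was KRT6A. They were the only such members of the 30 tested, against 9.5% of all genes without overlap in either direction. KRT4 and KRT5, too low to be tested in this fit, were also lower. With 3 against 3 mice the exact permutation p cannot fall below 0.1. FOXA1-OE tumor 3, with FOXA1 mRNA in the range of controls, had the lowest DSG2, DSG3, DSC2 and SPRR1A of the 15 tumors. Without it, and without HNF4G-KO + FOXA1-OE tumor 5, 0 members were called.

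No member was called for FOXA1 overexpression in knockout cells. In HNF4G-KO + FOXA1-OE against HNF4G-KO tumors 0 of 30 members were called, against 0.085% of genes tested, and 5 were at an unadjusted p under 0.05 by limma, where 17.9% of genes were. KRT7, a simple keratin of ducts, was 354, 345, 379 and 358 RPKM in HNF4G-KO tumors and 771, 372, 895, 528 and 965 in HNF4G-KO + FOXA1-OE tumors. In control tumors it was 388, 449 and 585 RPKM, above all 4 HNF4G-KO tumors (log2 difference of HNF4G-KO from control -0.38, limma adjusted p = 0.324). It was 412, 457 and 596 in FOXA1-OE tumors. Averaged by mouse, HNF4G-KO and HNF4G-KO + FOXA1-OE tumors did not overlap, and their log2 difference was 0.94 ± 0.22 (SE, limma adjusted p = 0.149). DSG2 went the other way, with a log2 difference of -0.64 (limma adjusted p = 0.273), and its groups did not overlap either. Of all genes 13.3% did not overlap, and of the 30 members 3 did not (KRT7, KRT86 and DSG2). With the host stroma level as a covariate 2 members and 3.19% of genes were called, and without FOXA1-OE tumor 3 and HNF4G-KO + FOXA1-OE tumor 5 it was 0.

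The difference between the FOXA1-OE effects in knockout and in control cells was tested directly. It passed the threshold for 0 of 30 members, against 0.035% of genes, with 2 at an unadjusted p under 0.05 by limma, where 8.98% of genes were. The lowest adjusted p was 0.452, for KRT7.

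Against control tumors, HNF4G-KO + FOXA1-OE tumors had higher SPRR genes and PKP1 and lower KRT6B. Of 30 members 5 were called, 4 higher and 1 lower, against 3.69% of all genes (1.75% higher and 1.93% lower). This comparison and HNF4G-KO against control share the control tumors. The log2 differences were 2.56 ± 0.43 for SPRR3 (limma adjusted p = 0.00652), 2.23 ± 0.33 for SPRR1A (adjusted p = 0.00387), 1.42 ± 0.36 for SPRR1B (adjusted p = 0.0486), 0.47 ± 0.10 for PKP1 (adjusted p = 0.0230) and -1.10 ± 0.24 for KRT6B (adjusted p = 0.0220), with SE throughout. Of the cadherins, DSG3 had a log2 difference of 1.10 (limma adjusted p = 0.0905) and DSG2 of 0.49 (adjusted p = 0.452).

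The SPRR levels varied more among HNF4G-KO + FOXA1-OE tumors than among HNF4G-KO tumors, with SPRR1A at 32.6 ± 17.8 (SD, n = 4 mice) and 23.4 ± 4.57 RPKM (SD, n = 4 mice), a difference in spread that was not tested. Without FOXA1-OE tumor 3 and HNF4G-KO + FOXA1-OE tumor 5, 10 of 29 members and 6.46% of genes were called, in place of 5 members. DSG3 (log2 difference 1.40, limma adjusted p = 0.00686) and KRT15 (0.77, adjusted p = 0.0307) were then among them. When only the 2 groups compared entered the fit, 0 members and 0% of genes were called, and 10 members were at an unadjusted p under 0.05 by limma (13 in the fit of all groups, where 17.7% of genes were). Without any 1 of the 3 control tumors 2 were called (0.718% to 1.88% of all genes). Without tumor 1 of HNF4G-KO + FOXA1-OE 3 were (1.99%), and without both its tumors 2 and 3, which shared a mouse, 7 were (3.34%).

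Against FOXA1-OE tumors, which carry the same transgene in Cas-9 control cells, HNF4G-KO + FOXA1-OE tumors had 8 of 30 members called, 7 higher and 1 lower. Among all genes 6.76% were called, 2.92% higher and 3.84% lower, and 17 members and 22.3% of genes were at an unadjusted p under 0.05. SPRR1A had a log2 difference of 3.01 ± 0.33 (SE, limma adjusted p = 0.000413), from 2.83 ± 0.760 RPKM (SD, n = 3 mice) to 32.6 ± 17.8 (SD, n = 4 mice). SPRR3 (2.46, adjusted p = 0.00487), SPRR1B (1.80, adjusted p = 0.0103), DSG3 (1.503, adjusted p = 0.0165) and PKP1 (0.51, adjusted p = 0.0105) rose by limma, and KRT6B fell (-1.09, adjusted p = 0.0148). KRT6A was called only here, at 2.92 ± 0.396 RPKM in FOXA1-OE (SD, n = 3 mice) and 11.4 ± 6.38 in HNF4G-KO + FOXA1-OE tumors (SD, n = 4 mice; log2 difference 1.55 ± 0.37 SE, limma adjusted p = 0.0237).

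KRT15, a keratin of basal cells, was called in the same comparison. It was 3.95, 4.29 and 3.08 RPKM in control tumors, 6.27, 5.66, 4.74 and 5.48 in HNF4G-KO tumors, 2.43, 2.89 and 5.52 in FOXA1-OE tumors, and 8.95, 4.42, 5.71, 7.88 and 15.2 in HNF4G-KO + FOXA1-OE tumors. The 2 groups overlapped at FOXA1-OE tumor 3, and the log2 difference was 1.12 ± 0.29 (SE, limma adjusted p = 0.0321). Of the further epidermal and junction genes, 5 of 26 were called here, where 6.76% of all genes were, with GRHL3 higher (1.30 in log2 difference) and SOX2, CTNNB1, PKP4 and VIM lower (-2.09, -0.78, -0.53 and -1.08). SOX2 is a stem-cell transcription factor, and CTNNB1 and PKP4 encode the junction proteins beta-catenin and plakophilin 4. When only the 2 groups entered the fit 1 member and 0.178% of genes were called, and without the 2 libraries that stood apart 9 members and 7.09% of genes were, then with KRT6A (adjusted p = 0.0809) and KRT6B (adjusted p = 0.0576) not passing in limma.

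No member was called between metastases and primary tumors. With HNF4G-KO, 0 of 31 members were called, against 0% of 19726 genes, and 3 were at an unadjusted p under 0.05 by limma, where 13.1% of genes were. With HNF4G-KO + FOXA1-OE, 0 of 31 were called, against 0.0152% of genes, and 3 were at an unadjusted p under 0.05 by limma, where 9.01% of genes were. The lowest adjusted p was 0.307 (PPL) and 0.487 (KRT7) in the 2 comparisons.

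The SPRR genes spread widely between metastases. In HNF4G-KO metastasis 1 and 2, both from the peritoneum, SPRR3 was 237 and 4.92 RPKM, SPRR1A 142 and 5.79, and SPRR1B 59.0 and 5.20. SPRR3 was 32.0 RPKM in the primary tumor of the former mouse and 17.1 in that of the latter, so metastasis 1 was above its tumor and metastasis 2 below. KRT16 (6.24 and 0.385 RPKM), KRT6A (18.1 and 3.28) and KRT20, an intestinal keratin (843 and 117), were also higher in metastasis 1. Host stroma markers summed to 88.3 RPKM in metastasis 1 and 474 in metastasis 2, and their part in this difference was not tested.

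In the HNF4G-KO + FOXA1-OE mice, SPRR3 was 61.7 RPKM in metastasis 1 (spleen), 179.7 in metastasis 2 and 10.7 in metastasis 3 (both peritoneal fat), and 62.1 in metastasis 4 (peritoneum). Metastases 1 and 2 came from 1 mouse, whose tumor held 59.1 RPKM. SPRR1A (49.2, 105, 12.5 and 47.5 RPKM) and SPRR1B (19.7, 119, 7.83 and 30.3) were also highest in metastasis 2 and lowest in metastasis 3. KRT6A was 2.94, 27.9, 7.38 and 6.42 RPKM, highest in metastasis 2 as well.

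DSG2 was 59.1 and 59.7 RPKM with HNF4G-KO and 50.1, 61.3, 84.5 and 71.0 with HNF4G-KO + FOXA1-OE, and DSG3 was 5.82 and 4.61, and 4.21, 9.56, 5.61 and 9.74. DSC2 was 10.9 and 12.4, and 9.89, 14.4, 18.2 and 16.2 RPKM. PKP1 was 0.990 and 0.464, and 0.301, 1.57, 1.25 and 0.939 RPKM. PKP1 varied more between these metastases than DSG2 did, a difference in spread that was not tested. KRT15 was 7.86 and 5.89, and 14.6, 10.4, 8.96 and 8.82 RPKM.

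In metastases KRT6B was 4.96 and 4.45 RPKM with HNF4G-KO and 4.06, 6.86, 4.36 and 7.38 with HNF4G-KO + FOXA1-OE. KRT81 was 0.163 and 0.177, and 0.331, 0.507, 0.328 and 0.0855 RPKM. JUP was 133 and 147, and 209, 180.1, 140.2 and 133 RPKM, and KRT80 33.2 and 33.3, and 46.0, 58.2, 35.8 and 34.3.

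The KPC lines did not show 1 direction between the tumor and the liver metastasis line, and replicates 1 and 2 went against replicates 3 and 4. Both pairs are therefore given apart. Of 38 mouse counterparts 23 reached a mean of 0.3 RPKM. With all 4 replicates 0 of 23 were called, against 0% of 16682 genes, and 0 were at an unadjusted p under 0.05 by limma, where 1.28% of genes were.

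The simple keratins dominated here too, with 99.5% to 99.6% of the summed keratin RPKM. Krt18 (mean 1371 RPKM), Krt8 (1036 RPKM) and Krt19 (739 RPKM) led, and Sprr1a (449 RPKM) was the most abundant envelope gene, with Ivl at 10.95 RPKM. Krt5, Krt6a, Krt6b, Krt17, Dsc3, Dsg3, Sprr3 and Trp63 were at most 0.0420 RPKM in any of the 8 libraries. Epithelial markers were present (Cdh1 148 to 332 RPKM), with Epcam at 1.30 to 7.05 RPKM, and of the 5 fibroblast markers only Col1a1 reached 1 RPKM (0.538 to 4.02).

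In replicates 1 and 2 alone, 14 of 23 counterparts were called, 3 higher and 11 lower in the liver metastasis line, against 18% of genes (9.88% higher and 8.1% lower). In replicates 3 and 4 alone, 0 of 22 were called, against 0.376% of genes, with 11 members and 14.7% of genes at an unadjusted p under 0.05 by limma. The log2 difference had opposite signs in the 2 pairs for 21 of the 22 tested in both. The share of all genes with opposite signs was not computed, so whether this is particular to these genes is not known. The pairs hold 2 libraries per line, and what sets them apart is not given in the labels.

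Ivl, mouse involucrin, was 16.9 and 18.1 RPKM in tumor line replicates 1 and 2 and 4.12 and 5.50 in the metastasis line, and 6.21 and 4.69 against 21.2 and 10.9 in replicates 3 and 4. Its log2 difference was -1.68 ± 0.13 in the former pair (SE, limma adjusted p = 0.00505) and 1.35 ± 0.34 in the latter (adjusted p = 0.188). Krt14 had differences of -1.67 and 1.04, Krt23 of -1.28 and 0.91, Krt20 of -1.05 and 0.88, Sprr1a of -0.96 and 0.82 and Dsg2 of -0.70 and 0.88. Jup (0.51 and -0.58), Sprr1b (0.67 and -0.52) and Krt80 (0.49 and -0.25) went the other way in each pair.

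**Figure D5:**
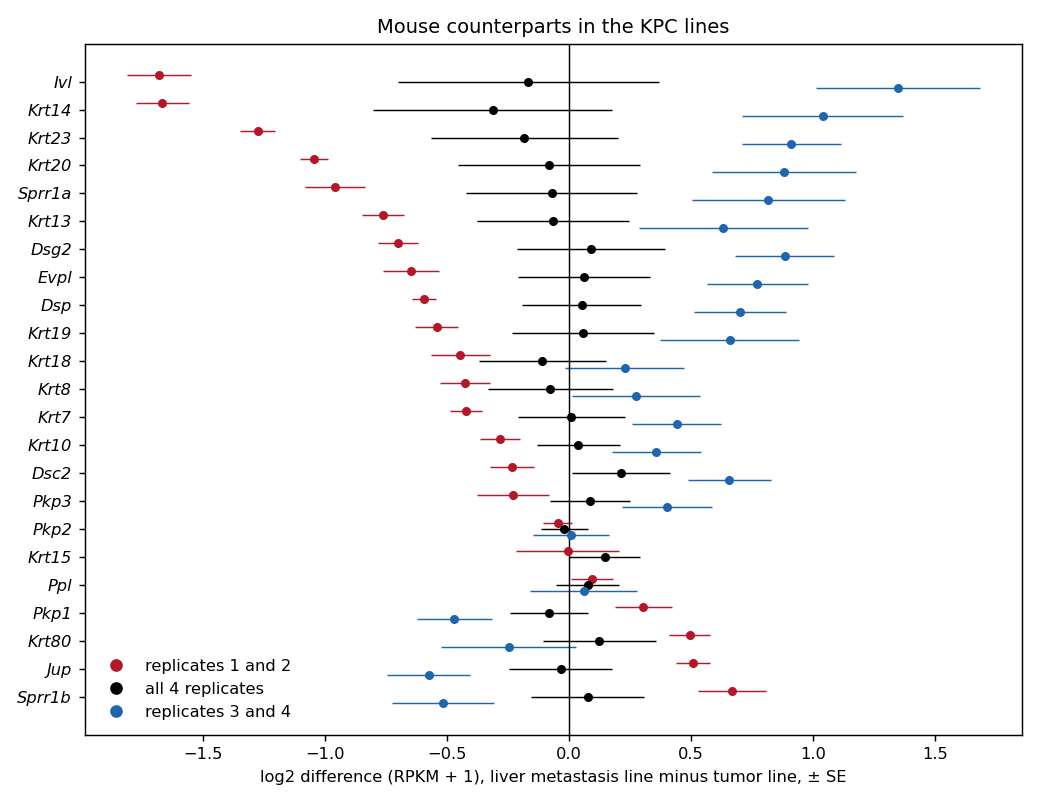
Log2 difference of RPKM + 1 between the KPC liver metastasis line and the tumor line, with its standard error, for the 23 mouse counterparts tested, in replicates 1 and 2 (red), all 4 replicates (black) and replicates 3 and 4 (blue). Red and blue points lie on opposite sides of 0 for 21 of 22 genes, a count not taken over all genes. The black points lie between -0.31 and 0.21.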

How the data were processed

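RNA-seq of HPAF-II tumors, metastases and KPC cell lines was taken as RPKM values deposited by the authors, 1 table per species. The submitters' processing notes name STAR 2.6.1a, featureCounts 2.0.4 and DESeq2, and the handling of strand and of reads with several matches is not given in the sources used here. Only RPKM was used, and 12 KPC columns that matched no sample were left out. Depth was inferred from the steps between low RPKM values.

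Values were tested as log2(RPKM + 1) with limma 3.58.1 in R 4.3.3 (empirical Bayes with a trend), with Benjamini-Hochberg adjustment over all genes with a mean of 0.3 RPKM or more and a threshold of 0.05. The 4 primary tumor groups shared a fit, as did the 4 groups of tumors and metastases of knockout cells, and tumors, or metastases, that shared a mouse were averaged on the log2 scale. Nothing says that the KPC libraries were separate cultures, so their p-values measure only the spread between libraries. Single members were also tested by two-sided exact permutation. The fits were checked on simulated data.

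The members, the list of further epidermal and junction genes and the marker lists (epithelium, host stroma, host pancreas, fibroblast) were chosen with earlier results of these data known. Values in every sample are given for members called in any HPAF-II comparison, for the most abundant member of each class and for TP63, and the others by range and counts. Exceptions named after their values were seen are KRT7, KRT14, KRT18 and the metastasis values of KRT16 and KRT20. Alternatives were the pseudocount, the filter, centering, the groups in the fit, separate tumors, a replicate block, a stroma covariate and leaving out libraries. Gene positions are from GENCODE 44 on GRCh38, and promoters from RefSeq.

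Deviations of same-numbered tumors of different groups correlated at -0.5 to 0.46, and those of tumors of other numbers at -0.58 to 0.66. With so few tumors these ranges cannot exclude pairing, and no pairing by number was used outside the replicate block. Tumor and metastasis numbers were paired only where the labels name the same mouse, which holds for 4 mice, whose paired deviations correlated at 0.21, 0.25, 0.30 and -0.07.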

Additional observations from a re-analysis of the deposited data

Results flagged for a closer look

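In 139 sets of 4 or 5 samples of a group, 3 held a sample far from the others by Dixon's criterion (2.16%), where chance flags about 1 in 20. Groups of fewer than 4 samples were not checked. KRT14 was 0.388 RPKM in HNF4G-KO + FOXA1-OE metastasis 4 and 0.0790 to 0.0926 in the other 3 metastases of that group. Krt13 was 4.603 RPKM in library 4 of the KPC liver metastasis line and 2.20 to 2.46 in the other 3. Krt15 was 0.669 RPKM in library 1 of the KPC tumor line and 0.102 to 0.165 in the other 3.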

How the results depend on the processing

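No direction reversed among the differences called. Of 332 values of the 21 called differences under other settings, 245 kept their side of the threshold and 87 lost it. KRT6B and SPRR1A in HNF4G-KO against control (limma adjusted p 0.00084 to 0.0104 and 0.00084 to 0.0361) and SPRR1A in HNF4G-KO + FOXA1-OE against FOXA1-OE (4.63e-05 to 0.0355) passed under all 16, and SPRR1B in HNF4G-KO + FOXA1-OE against control under 4. In HNF4G-KO against control, where 8 members were called, 4 were called without the RPKM filter, with more genes tested (2.69% of 44505 genes called), and 13 of 29 with only the groups compared (31.5% of genes called). For HNF4G-KO + FOXA1-OE, fits of only the groups compared called 0 against control (0% of genes) and 1 against FOXA1-OE (0.178%), the stroma covariate gave 2 against HNF4G-KO (3.19%), and leaving out FOXA1-OE tumor 3 and HNF4G-KO + FOXA1-OE tumor 5 (chosen after the data were seen) gave 10 against control (6.46%). KPC replicates 1 and 2 alone gave 14 (18%). Why the counts changed between settings was not tested. Leaving out 1 library at a time, or both tumors of the shared mouse, gave 2 to 6 members for HNF4G-KO against control (1.55% to 5.83% of all genes). For HNF4G-KO + FOXA1-OE it gave 2 to 7 against control (0.718% to 3.85%) and 6 to 10 against FOXA1-OE (3.54% to 8.12%). The other comparisons gave 0. PKP1, KRT81 and KRT14 lie under 1 RPKM on average, where few reads limit the precision.

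Tumors of the same number are not known to share more than the number. A replicate block on the numbers called 8 members for HNF4G-KO against control (9.2% of all genes called). It called 4 and 11 for HNF4G-KO + FOXA1-OE against control (3.54%) and FOXA1-OE (13%), and 0 in the other comparisons, KPC included. The replicate block by mouse for metastases, a pairing given by the labels, called 0 and changed no other call.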
